A study of Mus musculus with 6 samples.

Results

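Vitamin A uptake and retinoid metabolism is described here through 8 genes, *Rbp2*, *Bco1*, *Isx*, *Lrat*, *Aldh1a1*, *Dhrs3*, *Retsat* and *Rarg*, chosen by name and matched through their Ensembl identifiers among 20409 features of the count table. RNA of duodenal villus epithelium was sequenced from 3 double mutant and 3 wild-type mice, 1 library per mouse, with 2 females and 1 male in each group. The double mutant mice carried the tamoxifen-inducible Villin-CreERT2, Smad4 fl/fl and the exon 3-floxed, gain-of-function allele of *Ctnnb1* (β-catenin) over a wild-type allele, and received 4 injections of tamoxifen at 0.05 g/kg. Their villi were collected 7 days after induction. The wild-type mice were littermates that were not injected, so genotype and tamoxifen cannot be told apart, and the ages of the mice are not given in the sources used here. The Villin promoter drives Cre in the intestinal epithelium as a whole, crypts included, whereas villi were collected for RNA after chelation of the tissue in EDTA.

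Dietary vitamin A reaches the enterocyte as retinol or as provitamin A carotenoids such as β-carotene, which the cytosolic oxygenase BCO1 cleaves to retinal. Retinal and retinol are carried by the cellular retinol-binding protein RBP2, retinal is reduced to retinol, and the acyltransferase LRAT esterifies retinol with long-chain fatty acids so that it can leave the cell in chylomicrons. A smaller share is oxidised by way of retinal to retinoic acid, the ligand of the nuclear receptors RARα, RARβ and RARγ, and the homeobox factor ISX, itself induced by retinoic acid, is known to repress *Bco1* and the carotenoid receptor gene *Scarb1* in the intestine.

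All 8 genes passed the filter on low counts, which kept 13346 features. *Lrat*, *Bco1*, *Dhrs3* and *Retsat* fell in the double mutant villi, *Rarg* rose, and *Rbp2*, *Isx* and *Aldh1a1* did not pass an adjusted p of 0.05 in edgeR's quasi-likelihood test with p-values adjusted by Benjamini-Hochberg across every gene tested. Thus 4 of 8 genes were lower, where 17.0% of all tested genes were, and 1 of 8 was higher, where 19.7% were. These shares are the background of every list counted in this main fit of all 6 mice. Scaling by library size alone called 3732 genes higher and 1425 lower, and a replicate block 2084 and 1750. Fits without 1 mouse called 1812 to 2783 higher and 1630 to 2361 lower. The 8 genes and all lists were chosen with earlier results of these data known, so such counts describe them and test nothing. At the study's stricter threshold, which adds a log2 fold change of 2 or more, 2 were lower and 0 higher, against 2.26% and 3.05% of all tested genes. In 5 of the 8 genes, those called, the 3 double mutant mice did not overlap the 3 wild-type mice, 4 in the lower direction and 1 in the higher. This held for 52.4% of all tested genes, 24.2% in the lower direction and 28.1% in the higher. The median log2 fold change of the 8 genes was -0.94, against 0.02 over all tested genes. With 3 mice per group an exact two-sided permutation test cannot give a p below 0.1, and each p below comes from the fit across all genes. In bulk RNA, fewer cells of a type and less RNA per cell cannot be told apart.

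The promoters of *Bco1* and *Rbp2*, the genes of the cleavage enzyme and of the retinoid carrier, are shown because the first fell furthest of the 8 while the second was the most abundant and did not pass the test. The sequences are those of RefSeq on GRCm38.p6, from 250 bases before to 50 bases after the start site, both on the plus strand, at chr8:117095615-117095914 for *Bco1* and chr9:98490287-98490586 for *Rbp2*. Capitals mark AGGTCA on either strand, the letters that many nuclear receptors bind, and the base between neighbouring matches.
Bco1 promoter: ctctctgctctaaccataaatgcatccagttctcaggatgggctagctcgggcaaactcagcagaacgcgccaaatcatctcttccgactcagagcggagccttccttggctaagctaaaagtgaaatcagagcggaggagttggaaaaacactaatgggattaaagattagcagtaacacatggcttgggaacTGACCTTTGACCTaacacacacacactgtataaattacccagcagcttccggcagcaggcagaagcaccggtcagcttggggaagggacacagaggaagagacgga
Rbp2 promoter: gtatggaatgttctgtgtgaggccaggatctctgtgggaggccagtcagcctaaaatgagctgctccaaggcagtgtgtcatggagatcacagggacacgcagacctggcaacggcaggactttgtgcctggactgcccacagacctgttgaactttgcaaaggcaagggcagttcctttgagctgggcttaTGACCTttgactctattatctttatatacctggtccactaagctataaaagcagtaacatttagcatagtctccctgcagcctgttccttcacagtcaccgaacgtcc
The *Bco1* promoter holds these letters 2 times on the minus strand with 1 base between them, beginning 56 bases before the start site, and this spaced repeat was found in 13 of 32851 RefSeq promoters of the same length, or 0.0396%. The *Rbp2* promoter holds AGGTCA 1 time, 58 bases before the start site. In both, the letters extend to CAAAGGTCA, a string that contains AGGTCA and was searched after these sequences had been seen; it was in 0.478% of the promoters. AGGTCA alone was in 16.3% of the searched promoters and in 3 of the 12 RefSeq promoters of the 8 genes, the remaining match lying in one of *Rarg*. The same repeat with 5 bases between, the TCF/LEF letters CTTTGAT and the SMAD palindrome GTCTAGAC had no match in the 12 windows, and were in 0.00913%, 3.73% and 0.213% of the searched promoters. Of the other letters searched, those of GATA, TATA box and CDX were in 3, 3 and 1 of the 12 windows, against 11.2%, 13.6% and 11.9%. The CDX match lay in *Bco1*. The HNF4 and homeodomain letters were in 0, against 0.475% and 5.29%. A match here is a run of letters and not a measured binding site.

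*Smad4*, the floxed gene, checks the labels. It stood at 120, 180 and 144 CPM (a gene's counts scaled to a common library size, here with edgeR's TMM factors) in the wild-type mice and at 26.1, 36.8 and 32.1 CPM in the double mutant mice, a log2 fold change of -2.22 (SE 0.187, edgeR adjusted p = 0.000145). Library totals ran from 19678507 to 26337318 counts, which puts the level of 3 counts at 0.114 to 0.152 CPM, for counting error only. Wild-type mouse 1, the male of its group and the deepest library, stood apart from the other wild-type mice on the second principal component, which held 18.1% of the variance. Its 8 goblet cell markers summed to 142 CPM against 14846 and 15661 CPM in the other wild-type mice and 4960 to 5503 CPM in the double mutant mice. Its Paneth cell markers summed to 7.96 CPM against 912 and 1504 CPM in the other wild-type and 154 to 249 CPM in the double mutant mice, and were called in 0 of 6 cases by edgeR, also at an unadjusted p under 0.05, and in 2 by DESeq2. Without wild-type mouse 1 edgeR called 4 of 8 tested Paneth markers lower and 1 higher, with a median log2 fold change of -2.39. The enterocyte markers were present in every mouse and 14 of 15 fell, their sum going from a range of 42191 to 52691 CPM in the wild-type mice to one of 18917 to 21794 CPM in the double mutant mice. Of 10 stem and progenitor markers 7 rose, 3 without double mutant mouse 1 and 4 without double mutant mouse 2, their sums being 48.9 to 161 CPM in the wild-type and 299 to 388 CPM in the double mutant mice.

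**Figure D1:**
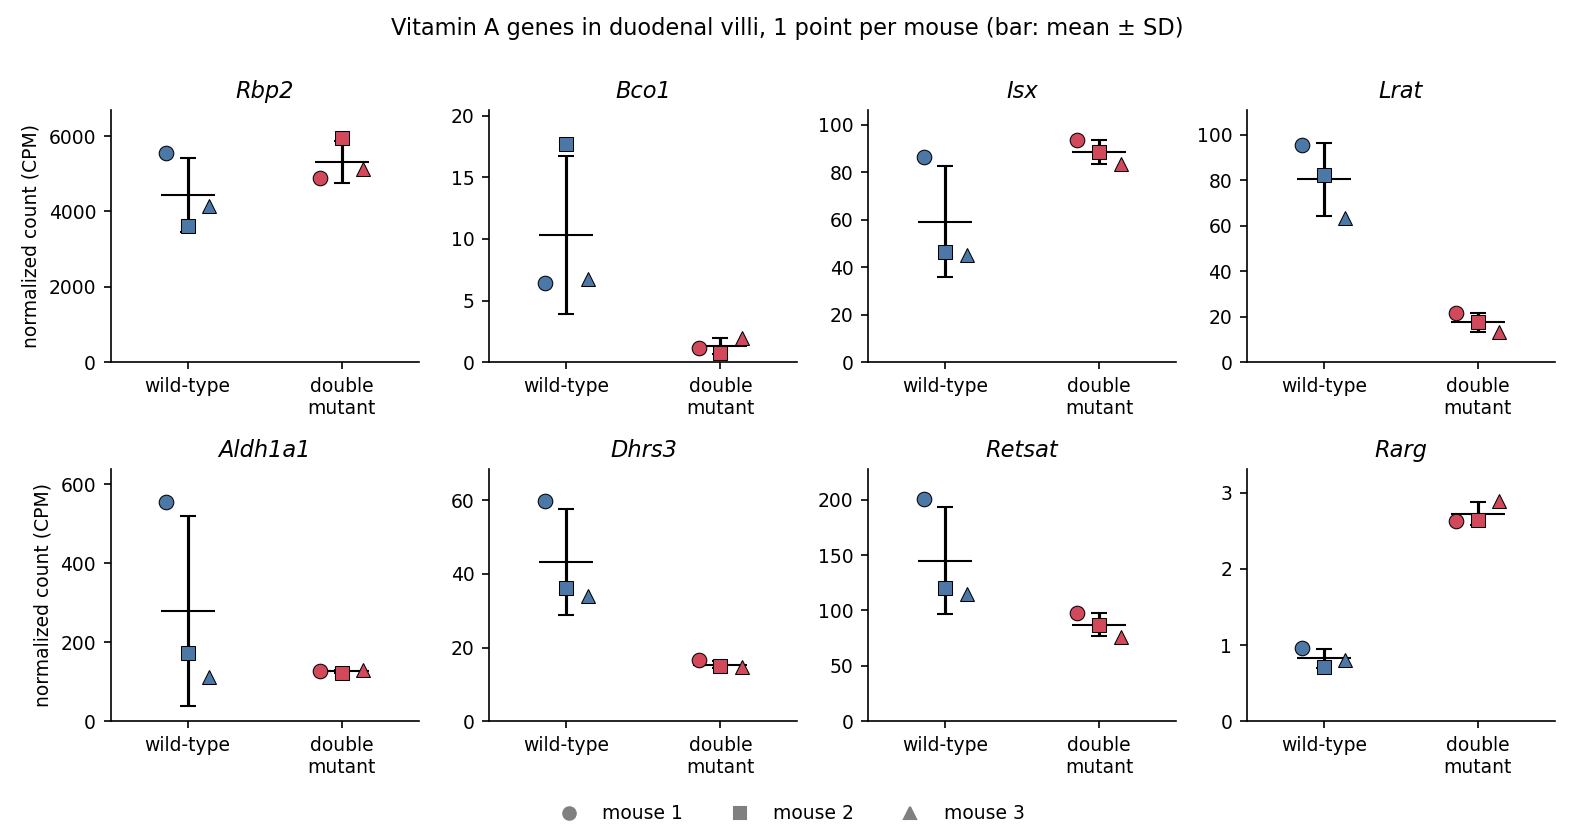
CPM of each of the 8 genes in every mouse, 1 panel per gene on its own linear axis from 0, with a point per mouse and the mean ± SD of 3 mice per group. The double mutant mice sit below every wild-type mouse for *Bco1*, *Lrat*, *Dhrs3* and *Retsat* and above every one for *Rarg*, and wild-type mouse 1 is at 554 CPM for *Aldh1a1* against 172 and 111 CPM in the other wild-type mice.

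Wild-type mouse 1 touched several of the 8 genes. It was the highest of the 3 wild-type mice for 7 of them and the lowest for *Bco1*, whereas it was the highest for 37.6% of all tested genes. Its value was 3.92 times the mean of the other wild-type mice for *Aldh1a1*, 1.89 times for *Isx*, 1.71 times for *Dhrs3* and for *Retsat*, and 1.43 times for *Rbp2*. Without this mouse 3 of the 8 genes were higher and 4 lower, against 20.2% and 17.1% of the genes tested in that fit. Each gene is therefore given with and without it, and its part in the differences was not otherwise tested.

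The entry of vitamin A into the enterocyte is represented by the cleavage enzyme, its repressor and the carrier. *Bco1* (ENSMUSG00000031845, *Bcmo1* in the mm9 annotation, chr8:119619754-119657397, plus strand) stood at 6.41, 17.7 and 6.77 CPM in wild-type mice 1 to 3 and at 1.13, 0.742 and 1.99 CPM in the double mutant mice. These values rest on 154, 326 and 134 counts in the wild-type and 24, 16 and 42 counts in the double mutant libraries. No double mutant mouse reached any wild-type mouse, although the wild-type mice themselves spread widely, mouse 2 being far above the others. *Bco1* fell from 10.3 ± 6.43 to 1.29 ± 0.641 CPM (SD, n = 3), a log2 fold change of -2.99 (SE 0.527, 95% interval -4.22 to -1.77, edgeR adjusted p = 0.00407). Of all tested genes, 1.25% were lowered further. Without wild-type mouse 1 the log2 fold change was -3.25 (edgeR adjusted p = 0.00267) and without wild-type mouse 2, the highest, it was -2.35, and all 6 leave-one-out fits called it.

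*Isx* (ENSMUSG00000031621, chr8:77396618-77417405, plus strand), the gene of the homeobox repressor of *Bco1*, was at 86.2, 46.3 and 44.9 CPM in the wild-type and 93.5, 88.4 and 83.6 CPM in the double mutant mice. The double mutant mice lay close together, and wild-type mouse 1 lay within their range while the other wild-type mice were lower. The group means were 59.1 ± 23.4 and 88.5 ± 4.94 CPM (SD, n = 3), and the log2 fold change of 0.58 (SE 0.246, 95% interval 0.01 to 1.15) did not pass the test (edgeR adjusted p = 0.101). With that mouse left out, *Isx* rose by 0.96 on the log2 scale (SE 0.126, edgeR adjusted p = 0.000409). It also passed with sex as a covariate (log2 fold change 0.65, edgeR adjusted p = 0.02). Scaling by library size alone, which raised the median log2 fold change of all genes by 0.19, gave 0.78 (edgeR adjusted p = 0.0303).

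*Rbp2* (ENSMUSG00000032454, chr9:98390956-98410190, plus strand), the carrier of retinol and retinal in the absorptive cell, was at 5538, 3615 and 4147 CPM in the wild-type and 4894, 5951 and 5122 CPM in the double mutant mice. The groups overlapped through wild-type mouse 1. The means were 4433 ± 993 and 5322 ± 556 CPM (SD, n = 3), with a log2 fold change of 0.26 (SE 0.175, 95% interval -0.14 to 0.66, edgeR adjusted p = 0.271). Leaving that mouse out, *Rbp2* rose by 0.46 on the log2 scale (SE 0.142, edgeR adjusted p = 0.03). The other fits without 1 mouse gave no call, with the lowest value of 0.13 without wild-type mouse 2 (edgeR adjusted p = 0.611) and 0.18 without double mutant mouse 2. In all 15 alternatives, which draw on the same 6 libraries, the fitted change of *Rbp2* was above 0. In these libraries 14 of the 15 enterocyte markers fell, but of 16 genes of chylomicron assembly 6 fell, 2 rose and 8 were not called.

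Of 9 other genes of carotenoid and retinoid uptake and binding tested, 2 rose and 1 fell, near the 19.7% and 17.0% of all tested genes, with a median log2 fold change of -0.10, and 1 rose without wild-type mouse 2 or any one of the double mutant mice. *Cd36*, a membrane receptor for fatty acids that also takes part in carotenoid uptake, fell from 129 ± 22 to 55.2 ± 11 CPM (log2 fold change -1.23, edgeR adjusted p = 0.00129). *Stra6l*, related to the retinol transporter *Stra6*, rose from 3.74 ± 0.655 to 8.06 ± 1.18 CPM (log2 fold change 1.11, edgeR adjusted p = 0.00562). *Ttr*, whose protein binds the retinol carrier of plasma, rose by 1.75 on the log2 scale from a level of 0.436 ± 0.289 CPM (edgeR adjusted p = 0.0403), a call held in 2 of the 6 fits without 1 mouse, those without wild-type mouse 1 or 3. *Bco2*, the mitochondrial carotenoid oxygenase and the most abundant of the list, had a log2 fold change of -0.24 (edgeR adjusted p = 0.164), at 133 ± 15.3 CPM in the wild-type and 113 ± 10.3 CPM in the double mutant mice. *Scarb1*, named as background above and so chosen after its values were known, was at 40.3, 77.7 and 70.1 CPM in the wild-type and 63.0, 41.8 and 31.6 CPM in the double mutant mice (log2 fold change -0.46, edgeR adjusted p = 0.298).

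The gene of the enzyme that esterifies retinol fell. *Lrat* (ENSMUSG00000028003, chr3:82696501-82707895, minus strand) was at 95.5, 82.4 and 63.5 CPM in the wild-type and 21.7, 17.4 and 13.1 CPM in the double mutant mice. The highest double mutant mouse lay far below the lowest wild-type mouse. *Lrat* fell from 80.4 ± 16.1 to 17.4 ± 4.32 CPM (SD, n = 3), a log2 fold change of -2.21 (SE 0.219, 95% interval -2.71 to -1.71, edgeR adjusted p = 0.000304), and 2.14% of all tested genes were lowered further. Fits without 1 mouse gave -2.39 to -2.03, all 6 called, with -2.06 without wild-type mouse 1. A gene on the opposite strand overlaps the *Lrat* locus but shares no exon bases with it.

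Of 12 other genes of retinyl ester synthesis and hydrolysis that were tested, 6 fell and 0 rose in edgeR, against 17.0% and 19.7% of all tested genes. Those that fell numbered 4 with limma-voom and without any one of the double mutant mice. Without double mutant mice 1, 2 and 3 in turn, 2012, 1630 and 1680 of all tested genes fell, against 2273 in the main fit. At an unadjusted p under 0.05, with DESeq2 and with limma-voom 0 rose in each case, and the median log2 fold change was -0.61. *Pnliprp2*, a pancreatic lipase-related enzyme, was at 16.1, 61.9 and 80.2 CPM in the wild-type and 8.50, 10.2 and 13.7 CPM in the double mutant mice (log2 fold change -2.29, edgeR adjusted p = 0.0353). The pancreatic acinar markers summed to 6.91, 24.3 and 37.4 CPM and to 10.1, 11.5 and 14.4 CPM in the same mice, and the Paneth sums were likewise lowest in wild-type mouse 1; their part in this difference was not tested. The call held in 1 of the 6 fits without 1 mouse, that without wild-type mouse 1 (log2 fold change -2.72, edgeR adjusted p = 1.89e-05). *Ces1g* and *Ces1e*, members of the carboxylesterase family that can hydrolyse esters, fell by 1.97 and 1.66 on the log2 scale (edgeR adjusted p = 0.0453 and 0.00457). The call for *Ces1g* was lost with library size alone (edgeR adjusted p = 0.0573), without any one of the double mutant mice and without wild-type mouse 1 (log2 fold change -0.85, edgeR adjusted p = 0.0688), whose 12.7 CPM stood above 2.72 and 2.98 CPM in the other wild-type mice. Reads of the *Ces1* genes, a family of close copies, may have been split among them. *Ces2e*, the most abundant gene of the list at 1448 ± 221 and 1333 ± 57.4 CPM, had a log2 fold change of -0.12 (edgeR adjusted p = 0.523).

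**Figure D2:**
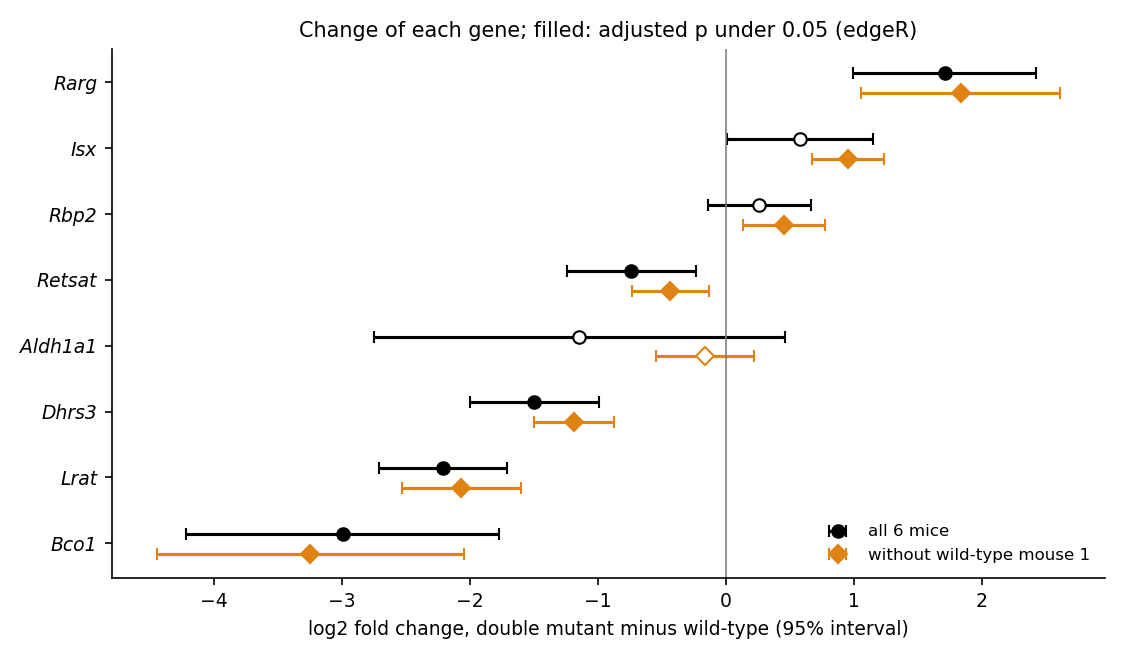
Log2 fold change of each of the 8 genes, double mutant over wild-type, with 95% intervals, for all 6 mice and without wild-type mouse 1. The intervals of *Bco1*, *Lrat*, *Dhrs3* and *Retsat* lie below 0 and those of *Rarg* and *Isx* above 0 with all mice, the latter from 0.01 and not passing the adjusted p, and *Aldh1a1* moves from -1.14 to -0.16 without wild-type mouse 1.

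Of the reducing and oxidising enzymes among the 8 genes, *Dhrs3* and *Retsat* fell and *Aldh1a1* did not pass the test. *Dhrs3* (ENSMUSG00000066026, chr4:144482730-144518112, plus strand), a retinal reductase that returns retinal to retinol, was at 59.9, 36.2 and 33.9 CPM in the wild-type and 16.6, 14.9 and 14.7 CPM in the double mutant mice. All double mutant mice were within a narrow range below the lowest wild-type mouse. *Dhrs3* fell from 43.3 ± 14.4 to 15.4 ± 1.04 CPM (SD, n = 3), a log2 fold change of -1.50 (SE 0.220, 95% interval -2.0 to -0.99, edgeR adjusted p = 0.0015). Without wild-type mouse 1 it was -1.19 (edgeR adjusted p = 0.000223), and all 6 fits without 1 mouse kept the call.

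*Retsat* (ENSMUSG00000056666, chr6:72548469-72558408, plus strand), the saturase that converts retinol to dihydroretinol, was at 201, 120 and 115 CPM in the wild-type and 97.3, 87.1 and 76.5 CPM in the double mutant mice. The groups did not overlap, but the gap between the nearest mice was small beside the height of wild-type mouse 1. *Retsat* fell from 145 ± 48.2 to 86.9 ± 10.4 CPM (SD, n = 3), a log2 fold change of -0.74 (SE 0.220, 95% interval -1.24 to -0.23, edgeR adjusted p = 0.0307). The log2 fold change without wild-type mouse 1 was -0.43 (edgeR adjusted p = 0.0296), over 1.5 times smaller. The call was lost without any one of double mutant mice 1, 2 or 3 (edgeR adjusted p = 0.0584, 0.0926 and 0.105), and with scaling by library size alone (log2 fold change -0.54, edgeR adjusted p = 0.0743).

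*Aldh1a1* (ENSMUSG00000053279, chr19:20676451-20717952, plus strand), the retinal dehydrogenase that makes retinoic acid, was at 554, 172 and 111 CPM in the wild-type and 127, 122 and 129 CPM in the double mutant mice. Wild-type mouse 3 was below all double mutant mice and wild-type mouse 1 far above every other mouse. The means of 279 ± 240 and 126 ± 3.54 CPM (SD, n = 3) gave a log2 fold change of -1.14 (SE 0.632, 95% interval -2.75 to 0.46, edgeR adjusted p = 0.22), and none of the alternatives gave a call. The log2 fold change without wild-type mouse 1 was -0.16 (95% interval -0.55 to 0.22, edgeR adjusted p = 0.482). *Aldh1a7*, named after its values were seen, is a close copy on the same chromosome whose reads the counting may not have kept apart. It was at 48.0, 24.8 and 17.7 CPM against 26.1, 22.0 and 22.6 CPM and was likewise highest in wild-type mouse 1.

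Of 17 other retinol and retinal oxidoreductases tested, 3 rose and 4 fell, against 19.7% and 17.0% of all tested genes, with a median log2 fold change of 0.11. Without wild-type mouse 1, 5 rose and 4 fell, and 1 rose without wild-type mouse 2 or double mutant mouse 2. With scaling by library size alone 7 rose and 4 fell, where 3732 and 1425 of all 13346 tested genes did. *Akr1b7* and *Akr1b8*, neighbouring aldo-keto reductases with closely similar sequences, went in opposite directions. *Akr1b7* fell from 64.7 ± 7.49 to 14.7 ± 6.23 CPM (log2 fold change -2.14, edgeR adjusted p = 0.00109), and *Akr1b8* rose from 4.05 ± 3.18 to 21.9 ± 8.50 CPM (log2 fold change 2.44, edgeR adjusted p = 0.0203, lost without wild-type mouse 2 or double mutant mouse 1 or 2). *Rdh9* and *Rdh7*, retinol dehydrogenases of a family of near-identical genes whose counts are uncertain, fell by 1.91 and 1.58 on the log2 scale (edgeR adjusted p = 0.00668 and 0.0111), the call of *Rdh7* being lost without double mutant mouse 2. *Rdh11*, a retinal reductase, rose from 45.8 ± 1.03 to 64.9 ± 3.82 CPM (log2 fold change 0.50, edgeR adjusted p = 0.00629), and *Dhrs4*, a peroxisomal reductase of retinal, rose from 83.9 ± 12.3 to 119 ± 8.44 CPM (log2 fold change 0.51, edgeR adjusted p = 0.0161, lost without wild-type mouse 2 or 3 or double mutant mouse 2). *Adh1*, the alcohol dehydrogenase with the highest level of the list, had 411 ± 75.8 and 444 ± 57.0 CPM and a log2 fold change of 0.11 (edgeR adjusted p = 0.624).

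*Rarg* (ENSMUSG00000001288, chr15:102065369-102087948, minus strand), which encodes the retinoic acid receptor RARγ, was at 0.958, 0.707 and 0.809 CPM in the wild-type and 2.63, 2.64 and 2.90 CPM in the double mutant mice. The counts behind these values were 23, 13 and 16 in the wild-type and 56, 57 and 61 in the double mutant libraries. The groups were well apart and each was narrow. *Rarg* rose from 0.825 ± 0.126 to 2.72 ± 0.150 CPM (SD, n = 3), a log2 fold change of 1.71 (SE 0.315, 95% interval 0.99 to 2.43, edgeR adjusted p = 0.00381), and 4.98% of all tested genes were raised further. It was 1.83 without wild-type mouse 1 (edgeR adjusted p = 0.00277), and every leave-one-out fit called it.

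Of 10 other retinoid receptor and coregulator genes, 4 fell and 0 rose in edgeR, nor did any rise at an unadjusted p under 0.05 or with DESeq2 or limma-voom (0 in each), with a median log2 fold change of -0.33. Of the other retinoic acid receptors, both chosen after their values were seen, *Rara* went from 45.1 ± 0.844 to 35.6 ± 2.01 CPM (log2 fold change -0.34, edgeR adjusted p = 0.0358) and lost its call in every fit without 1 mouse. *Rarb* was at 0.435 ± 0.300 and 0.751 ± 0.163 CPM (log2 fold change 0.80, edgeR adjusted p = 0.314). *Rxra*, the shared partner of these receptors, fell from 214 ± 4.58 to 153 ± 16.2 CPM (log2 fold change -0.48, edgeR adjusted p = 0.0102). *Ncor1*, a corepressor and the most abundant of the list, fell from 420.5 ± 72.6 to 249 ± 64.4 CPM (log2 fold change -0.76, edgeR adjusted p = 0.0185, lost without double mutant mouse 2 or 3), and the coactivator *Ncoa3* fell by 0.39 on the log2 scale (edgeR adjusted p = 0.0301, held without wild-type mouse 1 or double mutant mouse 1 and lost without any other mouse). None of these 4 falls was called with scaling by library size alone, where 0 of the 10 genes fell and the median was -0.13. Of all 13346 tested genes, 1425 fell with that scaling and 2273 in the main fit. The count of 4 became 1 without double mutant mouse 2 or 3 and 2 without wild-type mouse 2 or 3. It was 3 without wild-type mouse 1 and 5 without double mutant mouse 1. Of all tested genes, 1630 of 13699 fell without double mutant mouse 2 and 1680 of 13700 without double mutant mouse 3. Without wild-type mouse 2 it was 1724 of 13736, and without wild-type mouse 3 it was 1844 of 13681.

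Genes of retinoic acid synthesis and breakdown were mostly too low to test. Of 8, 3 were tested, and 1 rose. Without wild-type mouse 1, 4 were tested and 2 rose, the added gene being the retinal dehydrogenase gene *Aldh1a3*, named after its values were seen, with 4, 0 and 2 counts in the wild-type and 12, 12 and 8 counts in the double mutant libraries (edgeR adjusted p = 0.0299 without that mouse). *Aldh1a3* was called in 1 of the 6 fits without 1 mouse and in 0 of the 8 other settings with all 6 mice. In the fit that called *Aldh1a3*, as for *Cyp26b1* below, the filter was passed through the double mutant libraries alone, so these calls only describe the 2 genes. With library size alone 2 rose, *Cyp2s1* being added. The gene that rose with all 6 mice was *Cyp26b1*, a hydroxylase that inactivates retinoic acid and is induced by it, with 4, 1 and 1 counts in the wild-type and 44, 13 and 15 counts in the double mutant libraries (log2 fold change 3.49, SE 0.766, edgeR adjusted p = 0.00834). Double mutant mouse 1 was the highest at 2.07 CPM against 0.603 and 0.712 CPM. The 8 fibroblast and smooth muscle markers in the table summed to 6.62 CPM in that mouse, 0.949 and 0.974 CPM in the other double mutant mice and 0.272 to 0.960 CPM in the wild-type mice. The call held in all 6 fits without 1 mouse, whose log2 fold changes ran from 2.73 to 4.27. *Cyp2s1*, another hydroxylase of this list, was at 93.3 ± 10.8 and 104 ± 5.54 CPM (log2 fold change 0.16, edgeR adjusted p = 0.318).

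Of 7 tested genes known to respond to retinoic acid, 2 rose and 2 fell, with a median log2 fold change of -0.10. *Cyp26b1* also belongs to this list. *Tgm2*, a transglutaminase, rose from 57.8 ± 25.4 to 136 ± 35.6 CPM (log2 fold change 1.23, edgeR adjusted p = 0.035, held without wild-type mouse 1 or 3 and lost without any other mouse). *Tinagl1* and *Rai14* fell by 1.39 and 1.22 on the log2 scale (edgeR adjusted p = 0.00203 and 0.000514). Leaving out wild-type mouse 1 gave 2 that rose and 3 that fell, and 1 rose without wild-type mouse 2 or any one of the double mutant mice. Retinoic acid itself was not measured.

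**Figure D3:**
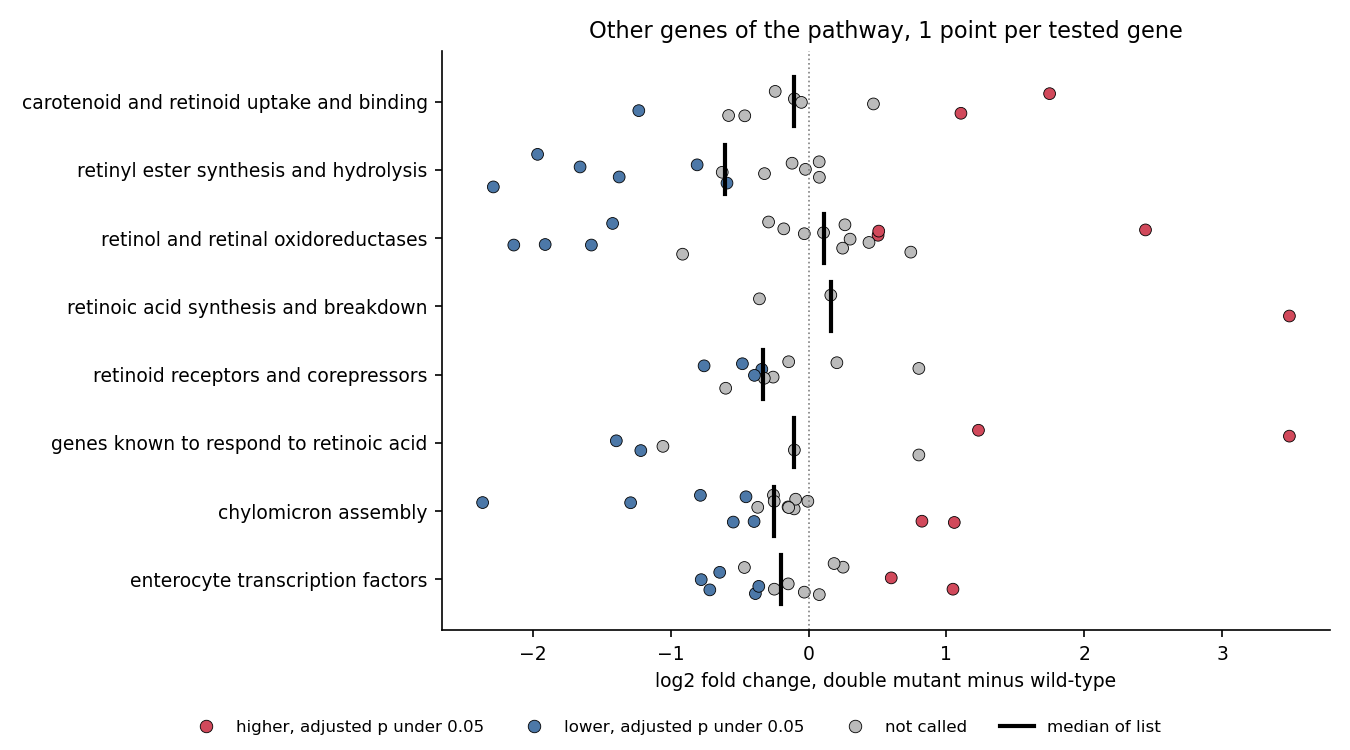
Log2 fold change, double mutant over wild-type, of the other tested genes of each pathway list, with 1 point per gene, coloured by its edgeR call, and a bar at the median of the list. The ester list has 6 lower and 0 higher calls and a median of -0.61, and the oxidoreductases lie on both sides of 0 with 3 higher and 4 lower calls.

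Chylomicrons carry the retinyl esters out of the enterocyte. Of 16 genes of their assembly tested, 2 rose and 6 fell, with a median log2 fold change of -0.25, and without wild-type mouse 1 the counts were 2 and 4. Those that fell numbered 3 with library size alone, where 1425 of all 13346 tested genes fell. They also numbered 3 without double mutant mouse 3, where 1680 of 13700 did. Without wild-type mouse 2 or 3 or double mutant mouse 2 or 3, 1 rose. *Apoc3* fell from 636 ± 334 to 124 ± 1.87 CPM (log2 fold change -2.36, edgeR adjusted p = 0.00266), with -1.85 without wild-type mouse 1. *Apoa4*, an apolipoprotein of chylomicrons, fell from 9164 ± 1945 to 3746 ± 309 CPM (log2 fold change -1.29, edgeR adjusted p = 0.000937). *Apoa1*, the most abundant of the list over both groups together, fell by 0.55 on the log2 scale (edgeR adjusted p = 0.0306), a call lost without wild-type mouse 3 or double mutant mouse 1 or 3, and with library size alone. *Plin3*, a lipid droplet protein, fell by 0.78 on the log2 scale (edgeR adjusted p = 0.00129) while its relative *Plin2* rose by 1.06 (edgeR adjusted p = 0.000324). *Fabp1*, the liver-type fatty acid carrier, rose by 0.82 on the log2 scale (edgeR adjusted p = 0.0332), although its groups overlapped and the call held in 2 of the 6 fits without 1 mouse, those without wild-type mouse 1 or double mutant mouse 1.

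Among 14 enterocyte transcription factors tested, 2 rose and 5 fell, with a median log2 fold change of -0.20. *Gata6*, *Hnf4g* and the vitamin D receptor gene *Vdr* fell by 0.78, 0.72 and 0.64 on the log2 scale (edgeR adjusted p = 0.00146, 0.0175 and 0.00589). *Hnf4a*, the most abundant of the list at 962 ± 60.2 and 736 ± 43.9 CPM, fell by 0.39 on the log2 scale (edgeR adjusted p = 0.0256), a call held in 2 of the 6 fits without 1 mouse, those without wild-type mouse 1 or double mutant mouse 2. *Ppara* and the bile acid receptor gene *Nr1h4* rose by 1.05 and 0.60 on the log2 scale (edgeR adjusted p = 0.00714 and 0.00458). Without wild-type mouse 2 or 3 or double mutant mouse 1 or 3, 3 factors fell. In those fits 1680 to 2012 of all tested genes fell, against 2273 in the main fit. With scaling by library size alone 2 factors rose and 2 fell, where 3732 and 1425 of all 13346 tested genes did. The calls of *Hnf4a* and *Hnf4g* were lost with that scaling.

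The 8 genes spanned a wide range of levels per length, in CPM per kilobase of exon of the mm9 annotation. In wild-type villi *Rbp2* was at 6597 ± 1477 (SD, n = 3), rank 6 of 13092 tested genes with a length, and *Aldh1a1* followed at 136 ± 117, *Retsat* at 45.4 ± 15.1, *Isx* at 26.3 ± 10.4, *Lrat* at 15 ± 3.01, *Dhrs3* at 14.8 ± 4.92, *Bco1* at 4.52 ± 2.82 and *Rarg* at 0.201 ± 0.031. The ranges of the mice overlapped between the neighbours *Aldh1a1* and *Retsat*, *Retsat* and *Isx*, and *Lrat* and *Dhrs3*. In double mutant villi the order was *Rbp2* at 7920 ± 828, *Aldh1a1* at 61.5 ± 1.72, *Isx* at 39.4 ± 2.20, *Retsat* at 27.2 ± 3.26, *Dhrs3* at 5.25 ± 0.356, *Lrat* at 3.26 ± 0.807, *Rarg* at 0.663 ± 0.036 and *Bco1* at 0.564 ± 0.281. Here the ranges overlapped between *Rarg* and *Bco1* alone. *Bco1* went from rank 6632 to rank 11271 of the 13092 genes, *Lrat* from 3498 to 7708, *Dhrs3* from 3538 to 6350, and *Isx* from 2281 to 1478.

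**Figure D4:**
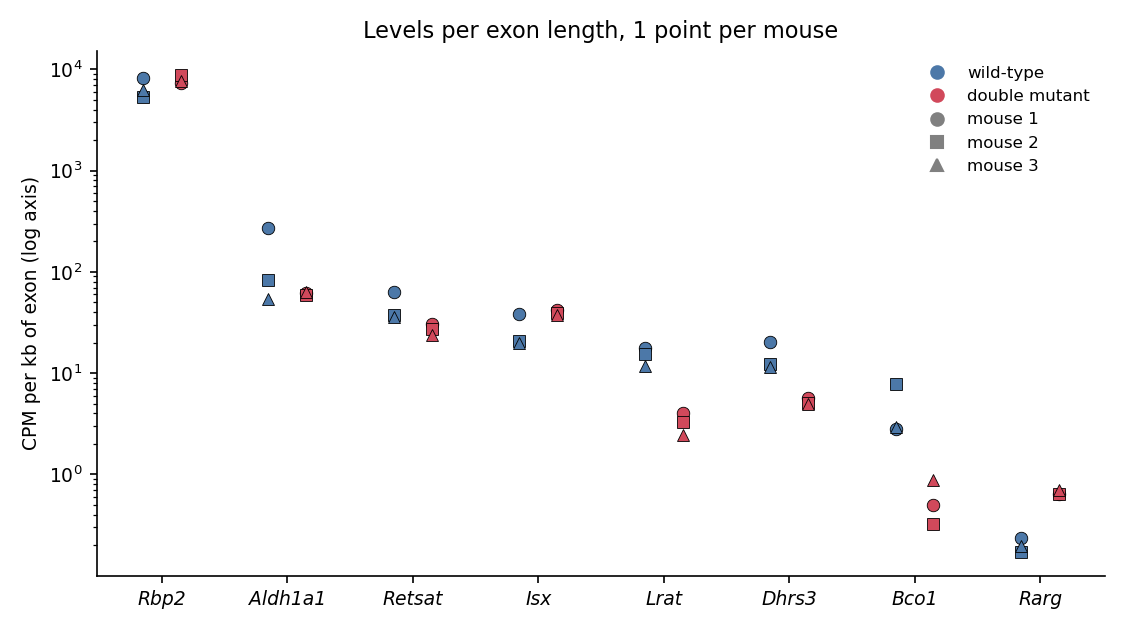
CPM per kilobase of exon of the 8 genes on a log10 axis, 1 point per mouse, ordered by the wild-type mean. *Rbp2* stands above every other gene in both groups, at means of 6597 and 7920, and *Bco1* changes place with *Rarg* at the low end.

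Levels of cell type markers also differed between the groups. Besides the fall of 14 of 15 enterocyte markers and the rise of 7 of 10 stem and progenitor markers, 8 of 11 villus tip markers fell, their sums being 13041 to 16099 CPM in the wild-type and 5357 to 6019 CPM in the double mutant mice. *Anpep*, the brush border aminopeptidase and the most abundant enterocyte marker, fell by 0.94 on the log2 scale (edgeR adjusted p = 0.00201), and the median log2 fold change of the enterocyte markers was -1.48. Tuft cell markers fell in 7 of 7 and enteroendocrine markers in 7 of 8 cases, at summed levels of 118 to 173 and 241 to 339 CPM in the wild-type and 14.8 to 15.8 and 101 to 111 CPM in the double mutant mice. Of the 8 goblet markers 0 were called with all 6 mice in edgeR, at an unadjusted p under 0.05, with DESeq2 or with limma-voom, and 6 fell without wild-type mouse 1. T lymphocyte markers had 1 call of 9 in edgeR, lower, with 6 lower at an unadjusted p under 0.05, 6 with DESeq2 and 2 with limma-voom, and sums of 85.4 to 177 and 79.5 to 117 CPM, and 7 fell without wild-type mouse 1, against 0 without wild-type mouse 2 or 3 or double mutant mouse 2. The sums stayed at or below 17.8 CPM for myeloid, 7.37 CPM for endothelial and 0.751 CPM for red blood cell markers, and lay between 6.91 and 37.4 CPM in the wild-type and 10.1 and 14.4 CPM in the double mutant mice for pancreatic acinar markers. The fibroblast and smooth muscle sums, given above with *Cyp26b1*, were 0.272 to 0.960 CPM in the wild-type and 0.949 to 6.62 CPM in the double mutant mice. Of the 8 markers of that list in the table, 1 passed the filter, *Pdgfrb*, while *Col1a2*, *Col3a1*, *Pdgfra* and *Myh11* were at 0 counts in every wild-type library. Which share of the differences in the 8 genes goes with the markers was not tested.

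**Figure D5:**
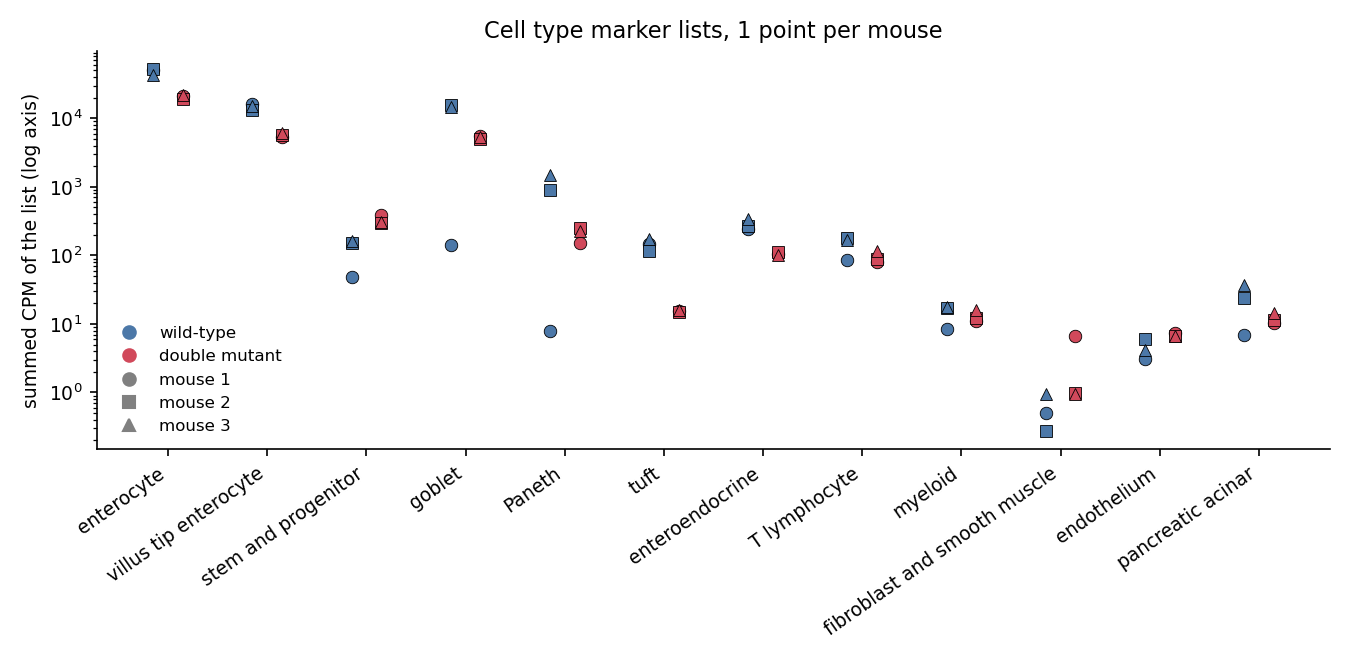
Summed CPM of each list of cell type markers on a log10 axis, 1 point per mouse, leaving out the red blood cell list, whose sum is 0 in a library. The enterocyte sum is lower in all 3 double mutant mice, and wild-type mouse 1 lies far below every other mouse for the goblet markers, at 142 CPM, and the Paneth markers, at 7.96 CPM.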

How the data were processed

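Villus RNA of 3 double mutant and 3 wild-type mice was measured as 1 polyadenylated-RNA library per mouse. Per the labels and methods of the study, the authors used HISAT2 for alignment to mm9 and featureCounts for gene-level counting, and the deposited values are whole-number counts of each mouse, neither normalized nor pooled. Strand and multi-mapping settings are not given in the sources used here, so counts of overlapping or near-identical genes are uncertain.

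Counts were analysed in R 4.3.3 with edgeR 4.0.16 (filterByExpr, TMM, robust quasi-likelihood fit and test, Benjamini-Hochberg over 13346 features, threshold 0.05). Standard errors are the log2 fold change over the square root of F. Exon lengths and positions are those of the GENCODE annotation of mm9, which held 20032 of 20073 Ensembl identifiers. Promoters and motifs used RefSeq sequences of GRCm38.p6 and exact letter matches on both strands. Scripts were tested on simulated counts.

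The 8 genes and all lists were chosen with earlier results of these data known. Named genes are the 8, up to 3 of the largest called changes per direction and list, the most abundant gene of a list, and 2 nearest profiles per gene. *Scarb1*, *Aldh1a3*, *Aldh1a7*, *Rara*, *Rarb* and the mesenchymal markers were named in addition, after their values were seen. Genes of the lists that are absent from the table were not analysed here. Alternatives were DESeq2 1.42.0, limma-voom (limma 3.58.1), RLE factors, library size alone, 2 other filters, a replicate block, sex as covariate, a log2 fold threshold of 2, and leaving out each mouse. Females alone were added after the data were seen. Same-numbered mice did not deviate together (r across genes 0.0224, -0.109 and 0.0123), which cannot show whether they were matched. The methods state that replicates were matched by age and sex between the groups, and the main fit did not pair the mice.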

Additional observations from a re-analysis of the deposited data

How the results depend on the processing

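Each of the 8 genes kept its direction in all 15 alternatives other than the fold threshold, which changes no direction. *Bco1*, *Lrat*, *Dhrs3* and *Rarg* kept their call in each of these 15, as did *Smad4* (log2 fold change -2.36 to -2.06 when a mouse was left out), and *Aldh1a1* was called in none. Among the 8 genes, 1 was higher and 4 lower. The higher count became 2 with library size alone, with the replicate block and with sex as a covariate, in each case by the addition of *Isx*, 3 with females only and 0 at a log2 fold threshold of 2, which *Rarg*, *Dhrs3* and *Retsat* did not reach, and ran from 1 to 3 when a mouse was left out, the 3 being without wild-type mouse 1. The lower count became 2 at that threshold and ran from 3 to 4 when a mouse was left out. Of all 13346 tested genes, 3732 were higher with library size alone, 2084 with the replicate block and 2686 with sex as a covariate, against 2632 in the main fit. With females only 2825 of 13523 were higher. *Retsat* lost its call without each double mutant mouse (-0.82, -0.74 and -0.65) and with library size alone (-0.54). *Isx* missed it with DESeq2 (0.56, adjusted p = 0.0566).

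Of 85 tested genes of the pathway lists 11 rose and 28 fell. The higher count ran from 6 (without wild-type mouse 2 or double mutant mouse 2) to 15 when a mouse was left out and was 2 at the fold threshold. The lower count was 17 with library size alone, 18 to 26 when a mouse was left out (18 without double mutant mouse 3) and 3 at the fold threshold. Of 85 tested marker genes 7 were higher, with 3 (without double mutant mouse 1) to 9 when a mouse was left out and 3 at the fold threshold, and 37 were lower, with 34 to 58 (58 without wild-type mouse 1), 59 with females only and 17 at the fold threshold. Fewer mice or a stricter threshold change these counts by construction, and other causes were not tested.

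Over all genes, 53.7% of calls were higher with TMM and 72.4% with library size alone. The replicate block left 3 rather than 6 genes of chylomicron assembly lower, 2 rather than 4 receptor and coregulator genes and 3 rather than 5 enterocyte transcription factors, and 1 rather than 2 higher in the uptake and chylomicron lists. Over all genes it gave 2084 higher and 1750 lower genes against 2632 and 2273, and not every mouse correlated best with its own number. Depth limits *Rarg*, *Bco1* and *Cyp26b1*, whose lowest libraries held 13, 16 and 1 counts.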

Other observations

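The genes whose profile over the 6 mice lay nearest to each of the 8 are given as a description, by the Euclidean distance between log2 CPM values (prior count 2), each centred on its own mean. For *Lrat* they were *Gm15368* and *Slc27a2*, an acyl-CoA synthetase of very long-chain fatty acids, at distances of 0.42 and 0.436. For *Dhrs3* they were *5730469M10Rik* (0.201) and *Cyp2d22* (0.304), for *Retsat* *Bet1* (0.183) and *Cpn1* (0.239), and for *Rarg* *Pgap1* (0.202) and the replication gene *Mcm2* (0.209). *Bco1* had no close profile, its nearest being an unannotated transcript (0.897) and *Aldh4a1*, an enzyme of proline breakdown (0.979). *Aldh4a1* stood at 184, 303 and 238 CPM in the wild-type and 25.3, 12.9 and 47.6 CPM in the double mutant mice, with the same order of mice as *Bco1* within each group. *Rbp2* was nearest to *Mpv17* (0.0838) and *Ccdc56* (0.0949), *Isx* to *2810002N01Rik* (0.152) and *BC002059* (0.173), and *Aldh1a1* to an unannotated transcript (0.562) and the glutathione transferase gene *Gstm2* (0.627). Distances for genes that changed little are small by construction.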
